A study of Mus musculus with 9 samples.

Results

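A set of 10 genes, all in wide use to recognise macrophages, was followed in mouse gastrocnemius, the large calf muscle, after treadmill training with and without metformin. The set holds 10 of the 55416 genes in the deposited table and was chosen by name: Adgre1, Cd68, Lyz2, Csf1r, Ccr2, C1qa, C1qb, C1qc, Mrc1 and Cd163. All 10 passed the filter on low counts, among 13944 genes that did. RNA was sequenced from 9 libraries in 3 groups of 3. The AET_MET group was trained on a treadmill for 60 minutes on each of 5 days weekly, through 8 weeks, and drank water with 2 mg/mL metformin, a glucose-lowering drug. The AET group had the same training without the drug, and the SED group was sedentary and untreated. Metformin without training was not analysed here, so whether the drug acted on the response to training or by itself cannot be told apart. The sources used here give no strain, sex, age or batch; library names have a common stem in each group, and a batch along those names cannot be told apart from the groups. Nothing in the labels says that the samples of a group are separate mice, and the spread that the p-values measure may thus be technical.

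Macrophages sit between the fibres of resting muscle, mostly around vessels and in the connective tissue, where they clear debris and iron and present antigen. Some are long-lived resident cells that keep scavenger receptors on their surface, and others derive from blood monocytes that enter through the chemokine receptor CCR2. Most depend on signals through the CSF1 receptor, and they are the main tissue source of the complement component C1q. In whole muscle these genes report a small population against a background of fibre RNA, so fewer macrophages and less of the RNA in each macrophage cannot be told apart.

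Libraries held 15434400 to 25355900 expected counts, the lowest in AET_MET replicate 1. Levels are given as CPM, read numbers relative to library size with TMM factors, and a count of 0 would have allowed up to 0.117 to 0.185 CPM, which covers counting error only. The 10 genes together took 116, 141 and 150 CPM in AET_MET, 197, 158 and 127 CPM in AET, and 127, 177 and 134 CPM in SED. The 3 groups overlapped in this sum, which averaged 136 ± 17.5 CPM in AET_MET, 161 ± 35.4 CPM in AET and 146 ± 27.0 CPM in SED (SD, n = 3 each). The 8 markers of the muscle fibre, by contrast, summed to 120400 to 142572 CPM. Every member was detected in every library, with counts between 31 (Ccr2 in AET_MET replicate 1) and 1472 (Lyz2 in SED replicate 2).

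No macrophage gene passed the test in any comparison of the groups. Calls rest on edgeR's quasi-likelihood test of all 9 libraries, at a p under 0.05 after Benjamini-Hochberg adjustment over all 13944 genes. In AET against SED, 0 of 10 members were called, where 12.3% of all genes were (5.82% upward and 6.45% downward, or 812 and 900 genes, against 980 and 711 with upper-quartile scaling). In AET_MET against SED the count was 0 of 10, against 4.59% of all genes (2.17% upward and 2.42% downward, or 303 and 337 genes, against 684 and 176 with library size alone). In AET_MET against AET it was 0 of 10, against 3.43% (1.66% upward and 1.77% downward, or 231 and 247 genes, against 611 and 156 with library size alone). The test of any difference among the 3 groups called 0 of 10 members and 13.2% of all genes. At an unadjusted p under 0.05 edgeR also counted 0 members in each of these tests, while the share of all genes that passed was 28.5% in AET against SED, 21.4% in AET_MET against AET and 20.6% in AET_MET against SED. DESeq2 called 0 members in each of the 3 comparisons as well.

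Most of the fitted changes of the members were above 0 in AET against SED and below 0 in both comparisons of AET_MET. In AET against SED, 8 of 10 members had a positive log2 change and the median was 0.19, beside 51.4% of all genes and a median of 0.0110. In AET_MET against SED, 1 of 10 was positive and the median was -0.11, beside 50.5% and 0.00262. In AET_MET against AET, 1 of 10 was positive and the median was -0.30, beside 50.1% and 0.000719. The 3 comparisons share libraries and the members varied together by library, so these counts are not independent. In AET_MET against SED, 5 of 10 were positive without SED replicate 2, where Adgre1 (0.27), Cd68 (0.43), C1qb (0.43) and Lyz2 (0.19) turned, and also without AET_MET replicate 1. In AET against SED, 6 of 10 were positive without AET replicate 1 or SED replicate 1, and 10 of 10 without AET replicate 3. In AET_MET against AET, 0 to 2 of 10 were positive with 1 library left out. Across the members the 95% intervals of the log2 change were between 0.54 wide for Csf1r and 1.64 wide for Cd163, so changes of moderate size were not detectable for the more variable genes. With library size alone in place of TMM the changes of Adgre1 (0.060), Csf1r (0.046) and C1qb (0.087) in AET_MET against SED were above 0, and with upper-quartile scaling so were C1qb there (0.026) and C1qc in AET against SED (0.023).

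**Figure D1:**
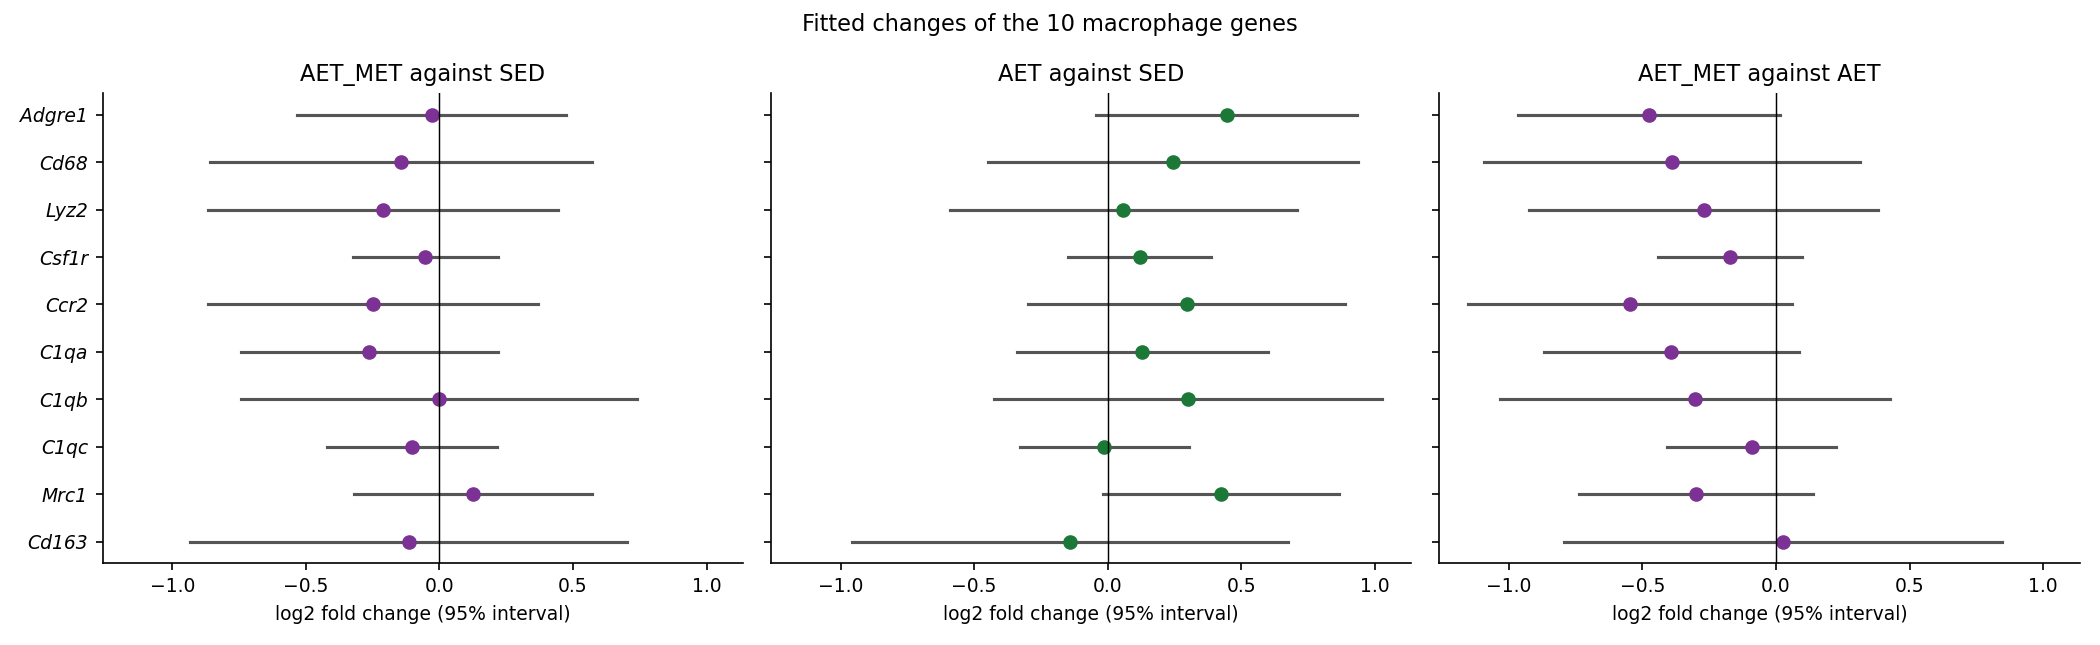
Log2 fold change of each of the 10 macrophage genes (points) with its 95% interval (lines), in AET_MET against SED, AET against SED and AET_MET against AET. Every interval includes 0; the largest changes are 0.45 for Adgre1 in AET against SED and -0.55 for Ccr2 in AET_MET against AET.

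Adgre1 encodes F4/80, the surface receptor by which mouse macrophages are usually recognised. It lies on chromosome 17 at 57358691 to 57483527 (GRCm38, forward strand). Its level was 3.02, 2.87 and 4.17 CPM in AET_MET, 5.30, 4.76 and 4.02 CPM in AET, and 2.98, 4.71 and 2.59 CPM in SED. The 3 AET libraries were high, but 1 library of each other group stood among them. The fitted log2 change was 0.45 ± 0.23 in AET against SED (SE; edgeR adjusted p = 0.213), -0.47 ± 0.23 in AET_MET against AET (0.249) and -0.03 ± 0.23 in AET_MET against SED (0.961).

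Cd68 encodes a glycoprotein of the lysosome membrane that fills phagocytic cells. It lies on chromosome 11 at 69664213 to 69666153 (reverse strand). Cd68 stood at 3.15, 2.64 and 2.42 CPM in AET_MET, 4.20, 3.20 and 3.33 CPM in AET, and 1.84, 4.93 and 2.20 CPM in SED. The SED group held both the highest and the lowest 2 of the 9 libraries. Every AET_MET library was below every AET library, the only such separation among the members in any comparison. That is 1 of 10 members in AET_MET against AET, where the libraries of 27.9% of all genes did not overlap, and 0 of 10 in AET_MET against SED (26.8% of all genes) and AET against SED (32.7%). The log2 change of Cd68 was -0.39 ± 0.32 in AET_MET against AET (edgeR adjusted p = 0.519), 0.24 ± 0.31 in AET against SED (0.652) and -0.14 ± 0.32 in AET_MET against SED (0.851).

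Lyz2 encodes lysozyme M, a bacteria-digesting enzyme that macrophages, monocytes and neutrophils secrete, and its promoter drives a common myeloid Cre line. It lies on chromosome 10 at 117277331 to 117282321 (reverse strand). Its level was 33.2, 38.3 and 41.5 CPM in AET_MET, 51.6, 45.2 and 39.7 CPM in AET, and 32.7, 64.8 and 33.3 CPM in SED. SED replicate 2 alone was above all 6 trained libraries, and the other SED libraries were at the bottom with AET_MET replicate 1. On the log2 scale the change was 0.06 ± 0.28 in AET against SED (edgeR adjusted p = 0.912), -0.27 ± 0.28 in AET_MET against AET (0.621) and -0.21 ± 0.28 in AET_MET against SED (0.727). Its near-identical neighbour Lyz1, which can take reads of Lyz2, was far less abundant, at 1.48, 2.04 and 2.02 CPM in AET_MET, 2.05, 1.80 and 1.78 CPM in AET, and 2.22, 3.39 and 2.83 CPM in SED.

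**Figure D2:**
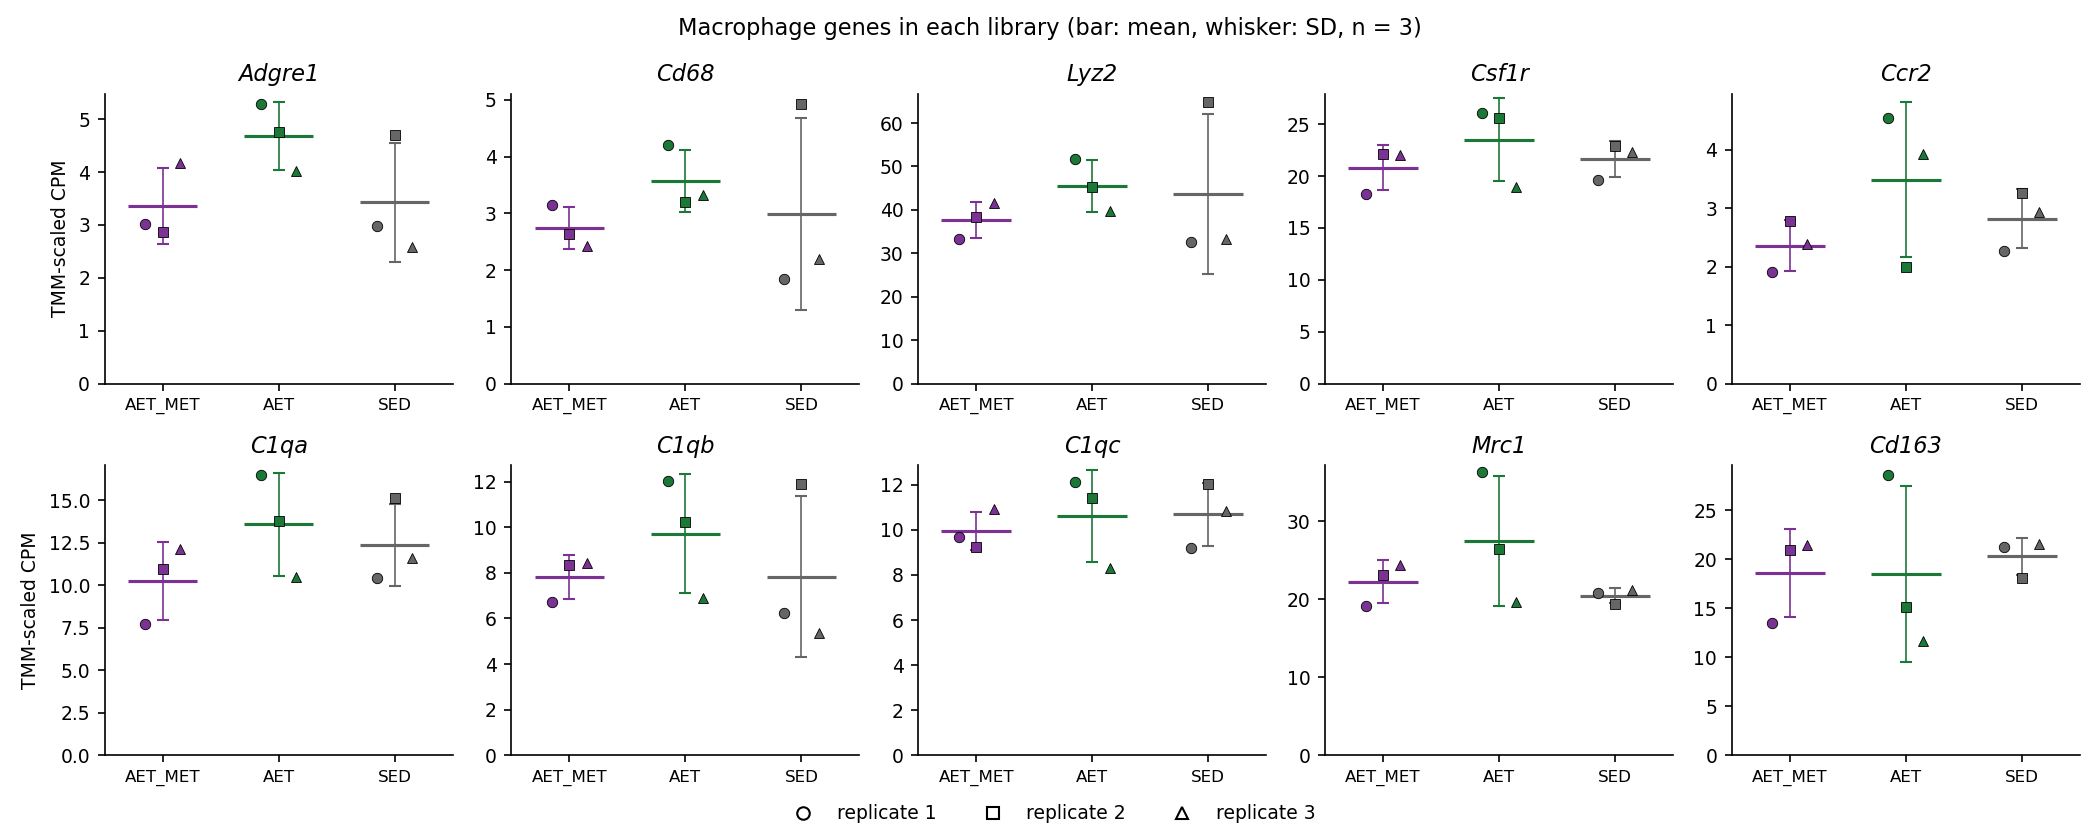
Level of each macrophage gene in every library (points, TMM-scaled CPM, linear axis from 0; circle, square and triangle are replicates 1, 2 and 3), with the group mean (bar) and SD (whisker, n = 3), for AET_MET, AET and SED. The groups overlap for every gene but Cd68 in AET_MET against AET; SED replicate 2 stands far above the other SED libraries for Cd68, Lyz2 and C1qb, and AET replicate 1 tops its group for all 10 genes.

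Csf1r encodes the receptor for the macrophage growth factors CSF1 and IL-34. It varied least of the set, at 18.3, 22.1 and 22.0 CPM in AET_MET, 26.1, 25.6 and 18.9 CPM in AET, and 19.7, 22.9 and 22.3 CPM in SED. The AET group held the top 2 libraries and, in replicate 3, nearly the lowest. The log2 change was 0.12 ± 0.12 in AET against SED (edgeR adjusted p = 0.562), -0.17 ± 0.12 in AET_MET against AET (0.448) and -0.05 ± 0.13 in AET_MET against SED (0.859). The 95% interval of the fold in AET against SED was 0.902 to 1.31, the narrowest of the members in that comparison. Csf1r lies on the forward strand and shares 873 bases at its end with Hmgxb3 on the other strand, and reads there cannot be told apart without the strand setting, which the sources used here do not give. Hmgxb3 itself stood at 19.8 ± 0.618 CPM in AET_MET, 19.0 ± 1.07 CPM in AET and 22.3 ± 1.04 CPM in SED (SD, n = 3 each).

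Ccr2 encodes the chemokine receptor that brings inflammatory monocytes out of the marrow and into tissue. It lies on chromosome 9 at 124101950 to 124113557 (forward strand). Ccr2 was the least abundant member, at 1.91, 2.78 and 2.38 CPM in AET_MET, 4.53, 1.99 and 3.93 CPM in AET, and 2.27, 3.26 and 2.93 CPM in SED. The AET libraries spread widely, with replicates 1 and 3 above all other libraries and replicate 2 near the bottom. The fitted log2 change was -0.55 ± 0.28 in AET_MET against AET (95% interval -1.15 to 0.06, edgeR adjusted p = 0.284), 0.30 ± 0.27 in AET against SED (0.512) and -0.25 ± 0.29 in AET_MET against SED (0.672).

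C1qa, C1qb and C1qc encode the A, B and C chains that assemble into C1q, the first component of the classical complement pathway. They lie side by side on the reverse strand of chromosome 4, at 136895917 to 136898803, 136880129 to 136886187 and 136889804 to 136893065. C1qa stood at 7.71, 11.0 and 12.1 CPM in AET_MET, 16.5, 13.8 and 10.5 CPM in AET, and 10.4, 15.1 and 11.6 CPM in SED. C1qb stood at 6.72, 8.34 and 8.44 CPM in AET_MET, 12.0, 10.2 and 6.89 CPM in AET, and 6.24, 11.9 and 5.37 CPM in SED. Both chains were highest in AET replicate 1 and next in SED replicate 2, and both groups overlapped with AET_MET. C1qc varied less, at 9.68, 9.26 and 10.9 CPM in AET_MET, 12.1, 11.4 and 8.31 CPM in AET, and 9.22, 12.0 and 10.8 CPM in SED.

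None of the C1q chains passed the test in any comparison. In AET against SED the log2 change was 0.13 ± 0.21 for C1qa (edgeR adjusted p = 0.729), 0.30 ± 0.32 for C1qb (0.577) and -0.01 ± 0.15 for C1qc (0.965). In AET_MET against AET it was -0.39 ± 0.21 for C1qa (edgeR adjusted p = 0.322), -0.30 ± 0.32 for C1qb (0.625) and -0.09 ± 0.15 for C1qc (0.758). In AET_MET against SED it was -0.26 ± 0.21 for C1qa (edgeR adjusted p = 0.544), -0.000362 ± 0.32 for C1qb (1.00) and -0.10 ± 0.15 for C1qc (0.742). Per kilobase of exon, C1qa was above C1qc in all 9 libraries, by 1.48 to 2.53 times. The ratio of C1qb to C1qc per kilobase was less even, from 0.879 in SED replicate 3 to 1.76 in AET replicate 1 and in SED replicate 2.

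Mrc1 encodes the mannose receptor CD206, an endocytic receptor that marks resident and alternatively activated macrophages. It lies on chromosome 2 at 14229392 to 14332057 (forward strand), and its region also holds the gene of the microRNA Mir511. Mrc1 stood at 19.1, 23.2 and 24.4 CPM in AET_MET, 36.3, 26.4 and 19.6 CPM in AET, and 20.8, 19.3 and 21.2 CPM in SED. AET replicates 1 and 2 were above every other library, and AET replicate 3 was among the lowest. The log2 change was 0.42 ± 0.19 in AET against SED (95% interval -0.02 to 0.86, edgeR adjusted p = 0.189, the smallest among the members in any comparison). It was -0.30 ± 0.19 in AET_MET against AET (edgeR adjusted p = 0.410) and 0.12 ± 0.20 in AET_MET against SED (0.775).

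Cd163 encodes the receptor by which macrophages take up complexes of haptoglobin and haemoglobin. It lies on chromosome 6 at 124304656 to 124330527 (forward strand). Its level was 13.4, 20.9 and 21.5 CPM in AET_MET, 28.6, 15.1 and 11.6 CPM in AET, and 21.2, 18.1 and 21.5 CPM in SED. The AET group held the highest and the lowest of the 9 libraries. On the log2 scale the change was -0.14 ± 0.34 in AET against SED (edgeR adjusted p = 0.824), 0.03 ± 0.35 in AET_MET against AET (0.978) and -0.12 ± 0.35 in AET_MET against SED (0.892). Relative to Mrc1, the other scavenger receptor, Cd163 stood at 0.703, 0.904 and 0.882 in AET_MET, 0.788, 0.572 and 0.593 in AET, and 1.02, 0.936 and 1.02 in SED, as a ratio of CPM. That ratio was lower in all 3 AET libraries than in all 3 SED libraries; it was formed after the values were seen and is given without a test.

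The members varied together by library more than by group. AET replicate 1 was the highest of the 9 libraries for 8 of 10 members, where it was the highest for 16.0% of all genes tested, and it was among the top 2 for 10 of 10, against 26.9% of all genes. SED replicate 2 was the highest for the other two, Cd68 and Lyz2, against 12.2% of all genes. Within its own group SED replicate 2 was the highest for 8 of 10 members, all but Mrc1 and Cd163, against 32.3% of all genes, and AET_MET replicate 3 was the highest of its group for 7 of 10, against 33.9%. The lowest library was AET_MET replicate 1 for 4 members, and AET replicate 3, SED replicate 1 and SED replicate 3 for 2 each. The mean standardised level of the 10 genes was -0.93, -0.22 and 0.08 SD in AET_MET, 1.44, 0.40 and -0.47 SD in AET, and -0.72, 0.81 and -0.39 SD in SED.

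**Figure D3:**
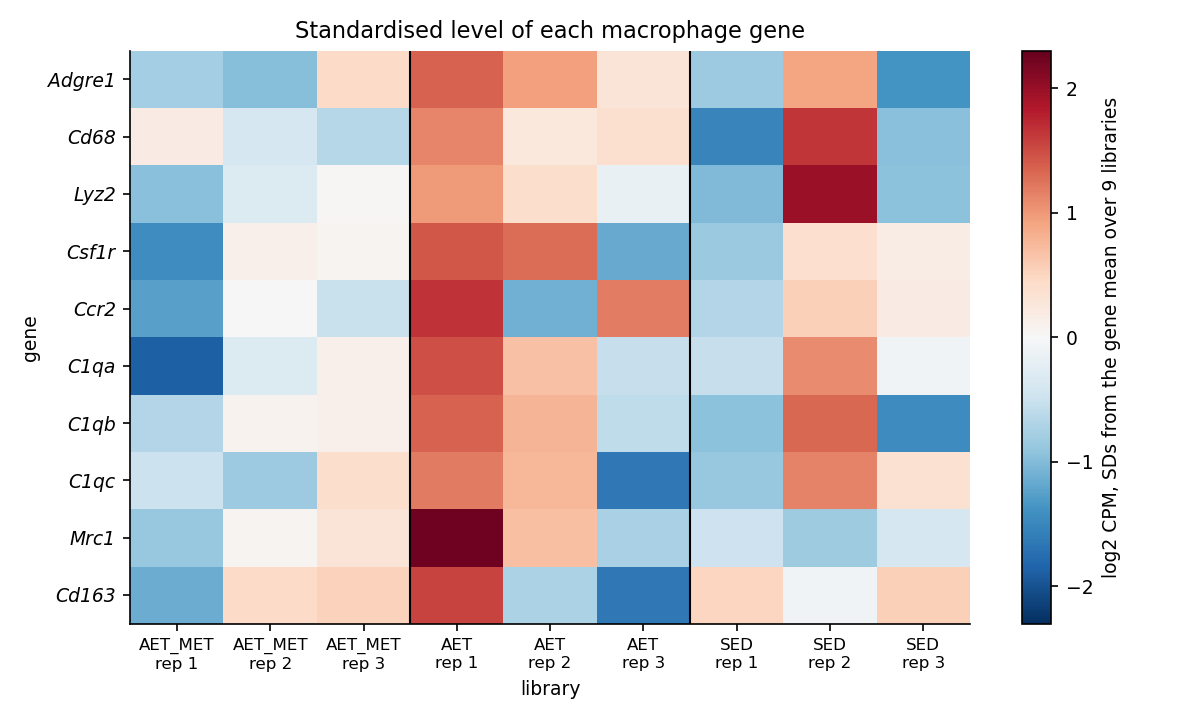
Log2 CPM of each macrophage gene in each library, as SDs from the mean of that gene over the 9 libraries (red above, blue below), with AET_MET, AET and SED from left to right. AET replicate 1 is red for all 10 genes, with a mean of 1.44 SD; SED replicate 2 is dark red for Cd68 and Lyz2 and pale blue to blue for Cd163 and Mrc1.

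The coefficient of variation of the level within groups was between 12.4% for Csf1r and 34.7% for Cd68, with C1qb at 31.1% and Cd163 at 31.8%. Counting error at the mean count of a gene was between 3.28% for Lyz2 and 12.6% for Ccr2. For Lyz2, the most deeply counted member, the coefficient of variation within groups was 26.3%. These values pool the 3 groups, and for Lyz2 and Cd68 the spread lay mostly in SED. Lyz2 averaged 37.7 ± 4.19 CPM in AET_MET, 45.5 ± 5.99 CPM in AET and 43.6 ± 18.4 CPM in SED (SD, n = 3 each). Cd68 averaged 2.74 ± 0.370, 3.58 ± 0.544 and 2.99 ± 1.69 CPM in the same order.

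Single libraries set whether 3 of the members passed the threshold for training. Without SED replicate 2, the log2 change of Cd68 in AET against SED was 0.82 ± 0.21 (edgeR adjusted p = 0.0453) and that of Lyz2 was 0.46 ± 0.12 (edgeR adjusted p = 0.0462), so that 2 of 10 members were called, beside 6.67% of all genes in the same fit. Adgre1 then stood at 0.75 ± 0.21 (edgeR adjusted p = 0.0592). Without AET replicate 3, Mrc1 stood at 0.62 ± 0.14 (edgeR adjusted p = 0.0263) and was the only member called, beside 6.65% of all genes. Without AET replicate 1 the Mrc1 change was 0.17 ± 0.14 (edgeR adjusted p = 0.501). With each of the other 6 libraries left out in turn, as without AET replicate 1, 0 members were called in AET against SED, beside 6.52% to 10.6% of all genes. In both comparisons of AET_MET, 0 members were called with any 1 library left out, beside 0.978% to 4.54% of all genes against SED and 0.16% to 3.19% against AET.

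**Figure D4:**
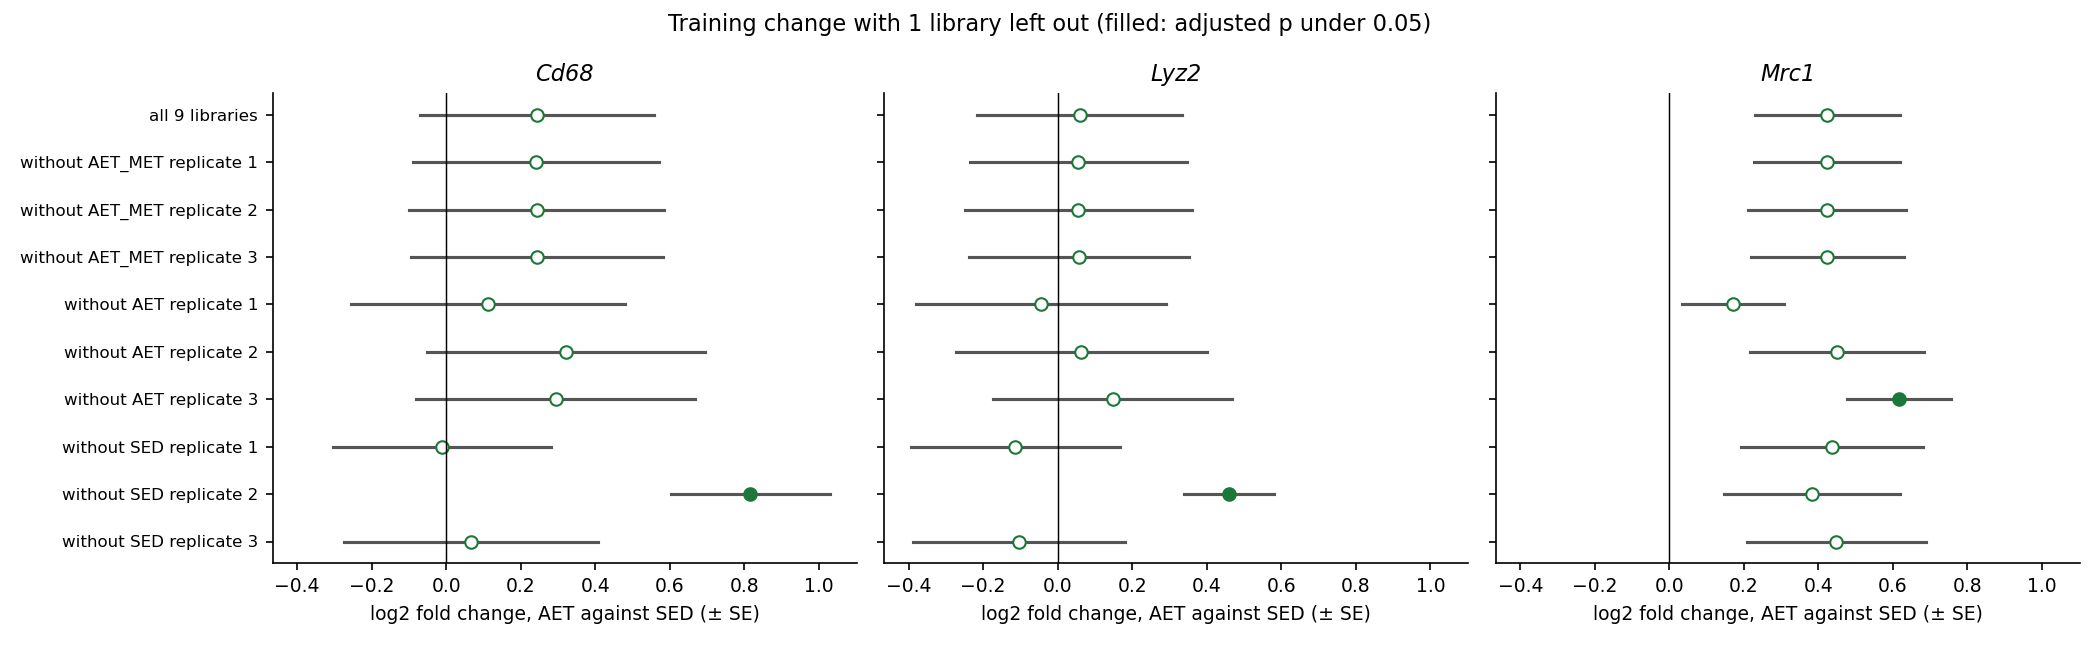
Log2 fold change in AET against SED (points, ± SE) of Cd68, Lyz2 and Mrc1 in the fit of all 9 libraries and with each library left out in turn; filled points have an edgeR adjusted p under 0.05. Only 3 points are filled: Cd68 (0.82) and Lyz2 (0.46) without SED replicate 2, and Mrc1 (0.62) without AET replicate 3.

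Beside the high Cd68, Lyz2 and C1qb, some related genes stood high in SED replicate 2 and others did not. The general myeloid genes summed to 82.1 CPM there, against 43.6 and 40.7 CPM in the other SED libraries, with Ctss, a lysosomal protease, at 16.1 CPM against 6.76 and 6.01 CPM and Mpeg1, encoding the pore-forming perforin-2, at 13.3 CPM against 4.06 and 2.78 CPM. The genes of lipid-associated macrophages summed to 185 CPM there, against 128 and 121 CPM. Both lists were also high in AET replicate 1. There the general myeloid genes summed to 80.2 CPM, against 54.8 and 51.4 CPM in the other AET libraries. The lipid-associated genes summed to 185 CPM in AET replicate 1, against 146 and 133 CPM. The sum of the resident macrophage genes did not stand high in SED replicate 2, at 139 CPM against 145 CPM in each of the other SED libraries. Gas6 alone made up 53.3 CPM of it, and single genes of the list went either way. Mertk was highest there (5.37 CPM, against 4.11 and 4.59), and Cd209f (1.06 CPM, against 3.21 and 2.25) and Mgl2 (1.32 CPM, against 2.46 and 2.00) were lowest. The list summed to 210 CPM in AET replicate 1, against 189 and 159 CPM in the other AET libraries. Col3a1, a collagen gene among the fibroblast markers, was 438 CPM in SED replicate 2, against 95.3 and 88.7 CPM in the other SED libraries. Of the same markers, Col1a1 (145 CPM, against 69.3 and 110) and Lum (24.8 CPM, against 13.2 and 15.8) were also highest there. So, by less, were Dpt (32.8 CPM, against 32.0 and 28.7), Ly6a (16.2 CPM, against 15.5 and 14.4) and Pi16 (17.8 CPM, against 17.0 and 15.6). Dcn (449 CPM, against 593 and 692) and Pdgfra (50.1 CPM, against 52.0 and 58.3) were lowest there. Its Ighm, encoding the heavy chain of immunoglobulin M, was 143 CPM, against 49.9 and 60.0 CPM. Hmox1, encoding the haem-degrading enzyme, was 15.7 CPM, against 8.79 and 9.53 CPM. The 8 fibroblast markers as a list summed to 657 to 704 CPM in AET_MET, 733 to 799 CPM in AET and 887 to 1175 CPM in SED, and the 7 B cell markers to 58.8 to 65.5 CPM in AET_MET, 41.0 to 54.9 CPM in AET and 50.1 to 144 CPM in SED. Whether these have a part in the SED values of the macrophage genes was not tested. Relative to Csf1r, Lyz2 stood at 2.83 in SED replicate 2 and at 1.49 to 2.09 in the other 8 libraries, as a ratio of CPM.

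The DNA just before the start of 4 members is shown because Cd68, C1qb and Lyz2 shared the high level in SED replicate 2 and Mrc1 did not. RefSeq gave such a stretch for 7 of the 10 members (build GRCm38.p6), and bases inside the annotated gene were removed. Capitals mark GAGGAA, a sequence preferred by PU.1, the factor that drives myeloid genes, or TTCCTC, the same motif on the other strand. Shorter matches, such as GGAA alone, are not marked and occur in the Lyz2 stretch as well. The stretches are read 5′ to 3′ along the strand of the gene. Cd68 is chr11:69666171-69666420 (reverse strand), C1qb is chr4:136886201-136886450 (reverse strand), Lyz2 is chr10:117282322-117282522 (reverse strand) and Mrc1 is chr2:14229164-14229391 (forward strand).
Cd68: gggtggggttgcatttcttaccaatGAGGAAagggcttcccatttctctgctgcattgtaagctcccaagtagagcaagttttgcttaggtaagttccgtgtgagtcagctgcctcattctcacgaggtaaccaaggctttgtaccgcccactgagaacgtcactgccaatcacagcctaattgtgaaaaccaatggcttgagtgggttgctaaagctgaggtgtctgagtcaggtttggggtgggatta
C1qb: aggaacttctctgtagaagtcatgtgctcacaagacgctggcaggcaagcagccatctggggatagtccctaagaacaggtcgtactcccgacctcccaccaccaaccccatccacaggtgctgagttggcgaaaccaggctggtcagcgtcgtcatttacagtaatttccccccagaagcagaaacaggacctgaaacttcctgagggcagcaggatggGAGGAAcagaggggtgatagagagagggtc
Lyz2: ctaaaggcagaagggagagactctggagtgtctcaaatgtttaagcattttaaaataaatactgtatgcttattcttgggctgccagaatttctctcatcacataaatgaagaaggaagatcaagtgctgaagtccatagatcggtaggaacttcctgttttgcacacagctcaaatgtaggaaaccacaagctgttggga
Mrc1: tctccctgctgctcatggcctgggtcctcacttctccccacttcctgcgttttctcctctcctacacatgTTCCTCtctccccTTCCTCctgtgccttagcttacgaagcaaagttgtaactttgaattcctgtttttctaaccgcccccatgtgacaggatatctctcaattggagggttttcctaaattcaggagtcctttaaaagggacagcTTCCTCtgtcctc

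The 6 letters of GAGGAA or its complement were present in 4 of the 7 members, once in Cd68, C1qb and C1qc and 3 times in Mrc1. They were absent from the stretches of Lyz2, Cd163 and Ccr2, of which Ccr2 had only 17 bases left after trimming. Of all 32851 RefSeq promoters, of 27025 genes, 7639 (23.3%) held the motif in the 250 bases before the start, without trimming. The members were counted by gene and on trimmed, partly shorter stretches, so their count is not like for like with this share. The motif thus occurred in genes with and without the high level in SED replicate 2. A match of these letters is a description of the sequence and not a measured binding site.

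Set per kilobase of exon, which corrects for gene length, the levels of the members spanned a wide range. Lyz2 was highest, at 32.1 ± 7.98 CPM per kilobase (SD over 9 libraries), followed by C1qa at 11.6 ± 2.58, C1qb at 7.78 ± 2.24 and C1qc at 5.40 ± 0.702. Csf1r (3.81 ± 0.469), Mrc1 (3.67 ± 0.856) and Cd163 (3.50 ± 0.950 CPM per kilobase) were close together. Cd68 (2.47 ± 0.780), Adgre1 (1.18 ± 0.305) and Ccr2 (0.427 ± 0.132 CPM per kilobase) were lowest. Between neighbours in this order only Lyz2 and C1qa, and Adgre1 and Ccr2, had ranges over the 9 libraries that did not overlap. Within libraries the order was steadier, with C1qa above C1qb, C1qc above Csf1r and Cd68 above Adgre1 in all 9, whereas Csf1r was above Mrc1 in 7 and Mrc1 above Cd163 in 4.

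The genes outside the set whose profile over the 9 libraries was most like the mean of the members were Med1, Olfml2b, Gpnmb, Fcgr3 and Fbrsl1. Likeness was the root mean square difference of standardised log2 CPM among 12068 genes with a mean of at least 1 CPM, and it was 0.302, 0.352, 0.379, 0.381 and 0.415 SD for these 5. The members themselves lay between 0.329 SD (C1qa) and 0.937 SD (Cd163) from their own mean. Fcgr3, an activating receptor for immunoglobulin G, and Gpnmb, a glycoprotein of lipid-laden macrophages, stand in myeloid lists, while Med1 encodes a subunit of the Mediator complex.

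Other general myeloid genes were not called either. Of 22 such genes, among them Ptprc (CD45), Tyrobp, Itgam and Itgb2, 20 were tested and 0 were called in any comparison by edgeR or DESeq2, with 1 at an unadjusted p under 0.05 in AET against SED, 2 in AET_MET against AET and 0 in AET_MET against SED. Their median log2 change was 0.19 in AET against SED, -0.30 in AET_MET against AET and -0.14 in AET_MET against SED. Itgb2, encoding the integrin beta chain of leukocytes, stood at 0.59 ± 0.28 in AET against SED (edgeR adjusted p = 0.188) and Ptprc at 0.50 ± 0.23 (0.173). Cx3cr1, the fractalkine receptor of patrolling monocytes and resident macrophages, stood at -1.05 ± 0.43 in AET_MET against AET (edgeR adjusted p = 0.176).

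Among 18 genes typical of resident tissue macrophages, 4 rose in AET against SED: Stab1, Cd209g, Cd209d and Gas6. Of the list 17 were tested, and 5.82% of all genes were called higher. The list was chosen with earlier results of these data known, so this share is given without a test. Their list median was a log2 change of 0.55, with 15 of 17 positive. In AET_MET against SED 1 was called, Cd209d, higher (list median 0.20), beside 2.17% of all genes called higher. In AET_MET against AET 1 was called, Gas6, lower (list median -0.21), beside 1.77% of all genes called lower. Lyve1, Folr2 and Timd4, which mark the long-lived resident cells, were not called, at 0.06 ± 0.21, 0.55 ± 0.24 and 0.99 ± 0.42 in AET against SED (edgeR adjusted p = 0.869, 0.148 and 0.145).

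Stab1 encodes stabilin-1, a scavenger receptor of resident macrophages that some vessel linings also carry. It stood at 18.3, 13.9 and 17.2 CPM in AET_MET, 26.4, 22.1 and 19.1 CPM in AET, and 12.5, 13.5 and 13.4 CPM in SED. All AET libraries were above all others. The fitted log2 change was 0.78 ± 0.13 in AET against SED (edgeR adjusted p = 0.00251, at most 0.0135 with any 1 library left out), -0.45 ± 0.13 in AET_MET against AET (0.0643, though DESeq2 called it) and 0.32 ± 0.13 in AET_MET against SED (0.176).

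Gas6 encodes a ligand by which dying cells are tethered to the macrophage receptor MERTK, and many cell types make it. It stood at 49.6, 59.3 and 50.8 CPM in AET_MET, 78.3, 66.0 and 66.6 CPM in AET, and 53.9, 53.3 and 53.1 CPM in SED. The AET libraries were again above all others, and those of AET_MET and SED overlapped. Gas6 rose by 0.39 ± 0.09 in AET against SED (edgeR adjusted p = 0.0129) and fell by 0.40 ± 0.09 in AET_MET against AET, both on the log2 scale (edgeR adjusted p = 0.0313). The call against AET was lost without AET_MET replicate 1 or 3 or AET replicate 1 or 3, where the adjusted p reached 0.143, and with scaling by library size alone.

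Cd209g and Cd209d encode relatives of the lectin DC-SIGN, and reads can be divided among the close copies of this family. Cd209g averaged 1.25 ± 0.408 CPM in AET_MET, 1.65 ± 0.304 CPM in AET and 0.594 ± 0.0956 CPM in SED (SD, n = 3 each). Its log2 change was 1.47 ± 0.31 in AET against SED (edgeR adjusted p = 0.00932) and 1.08 ± 0.32 in AET_MET against SED (0.0721). Cd209d averaged 1.47 ± 0.275 CPM in AET_MET, 1.69 ± 0.623 CPM in AET and 0.596 ± 0.147 CPM in SED. Every trained library was above every SED library for both genes. The log2 change of Cd209d was 1.49 ± 0.33 in AET against SED (edgeR adjusted p = 0.0129, lost without AET replicate 1 or SED replicate 2, where it reached 0.0584) and 1.31 ± 0.34 in AET_MET against SED (0.0471, lost with 7 of the 9 libraries left out in turn).

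**Figure D5:**
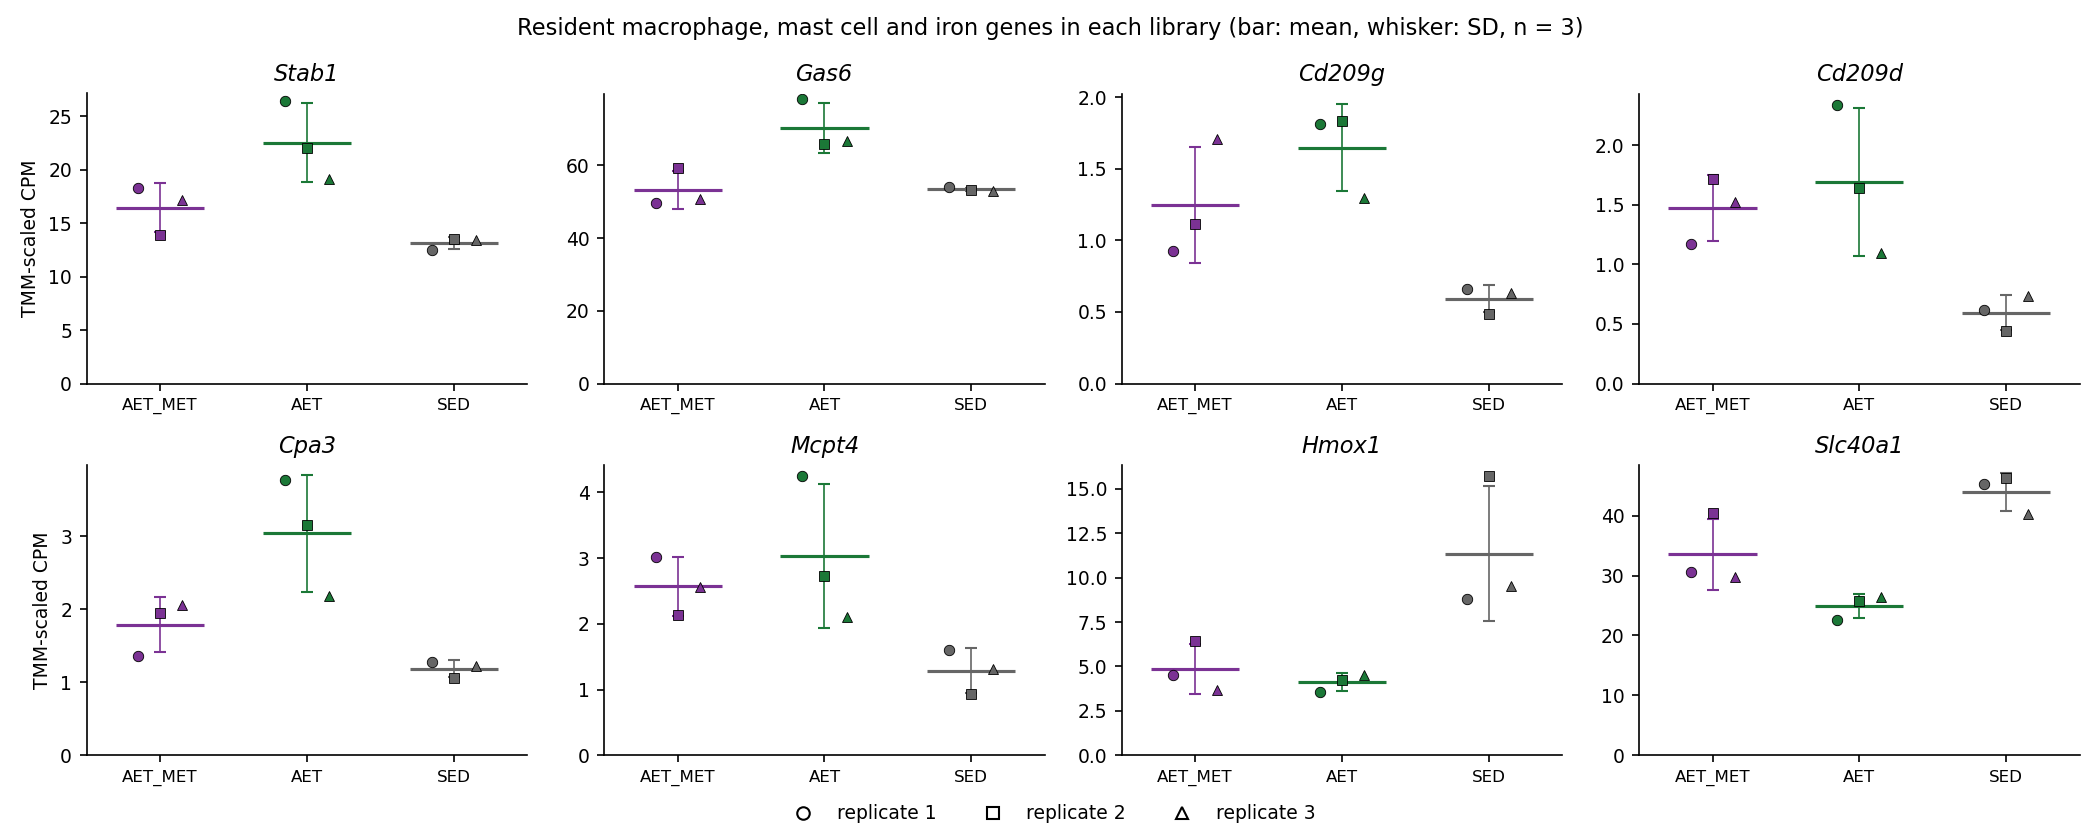
Level in every library (points, TMM-scaled CPM, linear axis from 0; circle, square and triangle are replicates 1, 2 and 3), with group mean (bar) and SD (whisker, n = 3), of 4 resident macrophage genes (Stab1, Gas6, Cd209g, Cd209d), 2 mast cell genes (Cpa3, Mcpt4) and 2 genes of haem and iron handling (Hmox1, Slc40a1), for AET_MET, AET and SED. The first 6 are higher in AET than in SED in all libraries, as with Stab1 at 19.1 to 26.4 CPM against 12.5 to 13.5 CPM, and the last 2 are lower.

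Recycling of haem iron is a task of macrophages that other cells of muscle share. Of 9 genes of this group, all tested, 2 fell and 0 rose in AET against SED, beside 6.45% and 5.82% of all genes. Slc40a1, encoding the iron exporter ferroportin, stood at 30.5, 40.4 and 29.8 CPM in AET_MET, 22.6, 25.7 and 26.4 CPM in AET, and 45.3, 46.3 and 40.3 CPM in SED. It fell by 0.82 ± 0.11 on the log2 scale in AET against SED (edgeR adjusted p = 0.00104), and the AET_MET level lay between, at 0.43 ± 0.12 against AET (0.0598) and -0.39 ± 0.11 against SED (0.0731). DESeq2 called Slc40a1 in both of these comparisons. Hmox1 stood at 4.50, 6.44 and 3.68 CPM in AET_MET, 3.58, 4.22 and 4.54 CPM in AET, and 8.79, 15.7 and 9.53 CPM in SED. It fell by 1.46 ± 0.26 in AET against SED (edgeR adjusted p = 0.00665) and by 1.22 ± 0.26 in AET_MET against SED (edgeR adjusted p = 0.0296, lost with 7 of the 9 libraries left out in turn, with no filter on low counts and in a fit of the 2 groups alone). Cd163, the haemoglobin receptor of the set, was not called.

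The ligands of the CSF1 receptor were not called. Csf1 stood at 9.44, 6.67 and 8.53 CPM in AET_MET, 10.3, 8.24 and 8.07 CPM in AET, and 7.09, 5.64 and 6.50 CPM in SED, all AET libraries above all SED libraries (log2 change 0.46 ± 0.15, edgeR adjusted p = 0.0615). Il34 stood at 2.34, 2.22 and 1.84 CPM in AET_MET, 1.62, 1.41 and 1.38 CPM in AET, and 2.08, 2.03 and 2.15 CPM in SED, with the AET libraries lowest (log2 change -0.51 ± 0.20 in AET against SED, edgeR adjusted p = 0.110). Among the 13 ligands and myeloid transcription factors 12 were tested and edgeR called 0 in any comparison, Spi1 (PU.1) and Irf8 included. At an unadjusted p under 0.05 there were 4 in AET against SED, 2 in AET_MET against AET and 3 in AET_MET against SED, and DESeq2 called Maf in AET against SED and Runx1 in AET_MET against SED. Their median log2 change was 0.08 in AET against SED, -0.10 in AET_MET against AET and 0.04 in AET_MET against SED.

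Of 14 other complement genes, all tested, only C2, the protease subunit of the C3 convertase, was called, higher in AET than in SED. Of all genes 5.82% were called higher in that comparison. It stood at 1.42, 3.47 and 2.92 CPM in AET_MET, 4.58, 4.02 and 2.84 CPM in AET, and 1.70, 2.03 and 2.20 CPM in SED (log2 change 0.94 ± 0.28, edgeR adjusted p = 0.0470). The call was lost in 6 of the 9 fits that left out 1 library, where the adjusted p reached 0.165. The list median was 0.20 in AET against SED, -0.32 in AET_MET against AET and -0.09 in AET_MET against SED.

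Genes of antigen presentation and of dendritic cells, which share many genes with macrophages, had 4 calls in AET against SED and 0 in the other comparisons. Of 7 MHC class II genes 2 were higher, Ciita, the master activator of the class, by 1.68 ± 0.44 (edgeR adjusted p = 0.0256) and H2-DMb1, a peptide loading chain, by 0.78 ± 0.23 (0.0445). Of 6 dendritic cell markers 3 were tested and 2 were higher, Zbtb46, which endothelium also expresses, by 0.58 ± 0.14 (edgeR adjusted p = 0.0200) and Cd209a by 1.61 ± 0.48 (0.0431). These 4 calls were lost in 4, 9, 4 and 8 of the 9 fits that left out 1 library. The H2-DMb1 call was also lost with DESeq2, library size alone, no filter and the 2 groups alone, where the adjusted p was 0.0547 to 0.129, and that of Cd209a with the 2 groups alone. In AET against SED DESeq2 called Ciita and Cd74 of the MHC class II genes, and Zbtb46 and Cd209a of the dendritic cell markers. The list medians were 0.55 and 0.60 in AET against SED, 0.32 and 0.48 in AET_MET against SED, and -0.23 and -0.40 in AET_MET against AET.

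Genes of incoming monocytes and of inflammation were mostly too low to test. Of 10 monocyte genes 3 were tested and 0 called, of 12 chemokines and their receptors 5 were tested and 0 called, and of 11 genes of lipid-associated macrophages 9 were tested and 0 called by edgeR. In these 3 lists together edgeR had an unadjusted p under 0.05 for 1 gene in AET against SED and 4 each in AET_MET against AET and AET_MET against SED, and DESeq2 called Spp1 in AET_MET against AET. Of 12 inflammatory genes only Nos2, the inducible nitric oxide synthase, was tested. It stood at 1.11, 1.30 and 1.26 CPM in AET_MET, 1.72, 1.05 and 1.58 CPM in AET, and 0.662, 0.440 and 0.537 CPM in SED, with every trained library above every SED library. The log2 change was 1.40 ± 0.30 in AET against SED (edgeR adjusted p = 0.0101) and 1.16 ± 0.31 in AET_MET against SED (0.0492, lost with any 1 library left out and with DESeq2, no filter or the 2 groups alone).

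Markers of neutrophils and of T and NK cells were too low to test, and 4 of mast cells were higher in AET than in SED. No neutrophil marker of 11 was tested; Ly6g, Mpo and Camp were at 0 in all libraries, and the list summed to 0.555 to 0.834 CPM in AET_MET, 0.446 to 0.907 CPM in AET and 0.189 to 1.10 CPM in SED. No marker of T and NK cells of 12 was tested, and these summed to 0.432 to 0.695 CPM in AET_MET, 0.527 to 0.668 CPM in AET and 0.264 to 0.440 CPM in SED. Of 6 mast cell markers 5 were tested, and 4 were higher in AET than in SED: Cpa3 by 1.35 ± 0.25 (edgeR adjusted p = 0.00472), Mcpt4 by 1.23 ± 0.29 (0.0155), Cma1 by 1.17 ± 0.29 (0.0218) and Tpsb2 by 0.92 ± 0.24 (0.0249). Over all genes 5.82% were called higher in that comparison. The mast cell list summed to 9.37 to 10.9 CPM in AET_MET, 9.86 to 18.4 CPM in AET and 5.95 to 7.33 CPM in SED. The Cpa3 call held with any 1 library left out, and those of Mcpt4, Cma1 and Tpsb2 were lost in 2, 5 and 4 of these 9 fits. Whether mast cells have a part in the rise of the resident macrophage genes was not tested.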

How the data were processed

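RNA of snap-frozen left gastrocnemius was sequenced in 9 libraries made with a SMARTER mRNA-Seq kit, per the labels' protocols. The authors deposited RSEM expected counts per gene and library. Per the submitters' processing notes, the build was GRCm38 and the tools included RSEM 1.3.0, STAR 2.5.3a and edgeR 3.34.0, without stated roles. Annotation release, filters and strand setting: not given in the sources used here. RSEM splits reads of near-identical copies, which leaves paralogs and overlapping genes uncertain. In each library 4.85% to 5.53% of values were not whole, and all were rounded before testing. GENCODE M21 gave a symbol to 52083 of 55416 identifiers; the other 3333 took 2.69% to 5.68% of a library's counts. Chi-square per degree of freedom between libraries of a group was 14.7 or more, so none was merged.

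Genes were tested with edgeR 4.0.16 (R 4.3.3, with limma 3.58.1): robust quasi-likelihood test, TMM scaling, filterByExpr, 1 fit of all 9 libraries with 6 residual degrees of freedom, a common biological coefficient of variation of 0.134, and Benjamini-Hochberg adjustment over 13944 genes. SEs were derived from the F statistic and 95% intervals from its degrees of freedom. DESeq2 1.42.0, other scalings, filters, the replicate number as a block and leaving out each library were alternatives. The test was checked on simulated counts. All 10 members are named; of other lists, the called genes, or otherwise up to 3 with the smallest p; and the 5 genes of most similar profile. The members and lists were chosen with earlier results of these data known, so no p is adjusted over a list alone. Genes named beyond this, such as Col3a1, Lyve1 and Folr2, were chosen after their values were seen.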

Additional observations from a re-analysis of the deposited data

How the results depend on the processing

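The members stayed uncalled under other scalings, DESeq2, other filters, fits of the compared groups alone and the replicate block. Of 501 recomputed member values, 467 kept direction and side of the threshold, 3 became calls when 1 library was left out and 31 changed sign, none of them called. With 1 library left out, 0 to 2 members were called in AET against SED, 0 to 1 in the test of any difference and 0 in the other comparisons; the cause was not tested. Over all genes these fits called 141 to 655 in AET_MET against SED (640 with all libraries), 934 to 1509 in AET against SED (1712), 23 to 461 in AET_MET against AET (478) and 899 to 1478 in the test of any difference (1838), with fewer samples by construction. Counts fell by over 1.5 times in AET_MET against SED without AET_MET replicate 1 (181) or 3 (141) or SED replicate 1 (417), 2 (253) or 3 (329), in AET against SED without AET replicate 1 (934) or 3 (954) or SED replicate 1 (1125) or 2 (957), and in AET_MET against AET without AET_MET replicate 1 (85), 2 (151) or 3 (23) or AET replicate 1 (104) or 3 (34). In AET_MET against AET, 767 genes were called with library size alone, 880 with DESeq2 and 731 with no filter, of 26411 tested. Library size alone moved the median of all genes by 0.10 in AET_MET against SED. Signs turned in AET_MET against SED for Adgre1 (0.060) and Csf1r (0.046) with library size alone and for C1qb with upper-quartile scaling (0.026), library size alone (0.087), at least 5 CPM in 3 libraries (0.00372), the compared groups alone (0.00273) and the replicate block (0.060), and in AET against SED for C1qc with upper-quartile scaling (0.023) and the 5 CPM filter (0.016). With 1 library left out, log2 changes that turned ran in AET_MET against SED from -0.23 to 0.27 for Adgre1, -0.40 to 0.43 for Cd68, -0.12 to 0.029 for Csf1r, -0.21 to 0.43 for C1qb, -0.24 to 0.066 for Cd163 and -0.39 to 0.19 for Lyz2, in AET against SED from -0.011 to 0.82 for Cd68, -0.034 to 0.30 for C1qa, -0.12 to 0.14 for C1qc, -0.60 to 0.10 for Cd163 and -0.11 to 0.46 for Lyz2, and in AET_MET against AET from -0.24 to 0.011 for C1qc and -0.22 to 0.48 for Cd163. The labels do not say whether the replicate numbers pair the samples. Deviations of same-numbered samples from their group means correlated at -0.0509 to 0.184, which cannot settle whether they are paired. With the replicate block 535, 1530 and 358 genes were called in AET_MET against SED, AET against SED and AET_MET against AET, 1491 in the test of any difference, and 0 members in each; the calls of C2, H2-DMb1, Dcn and Acta2 in AET against SED, Cd209d and Nos2 in AET_MET against SED and Kdr in AET_MET against AET were lost. DESeq2 and fits of the compared groups alone were not run for the test of any difference. Depth limits Ccr2 and Cd68 most, with lowest counts of 31 and 39.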

Other observations

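Other cells of the muscle also had called genes. Of all genes 5.82% were called higher and 6.45% lower in AET against SED, and 2.42% lower in AET_MET against SED. Kdr, the VEGF receptor of endothelium, stood at 48.3, 40.8 and 37.5 CPM in AET_MET, 55.7, 59.6 and 79.9 CPM in AET, and 34.4, 28.1 and 32.9 CPM in SED, and rose by 1.03 ± 0.15 on the log2 scale (SE) in AET against SED (edgeR adjusted p = 0.00206). Cldn5, a tight junction protein of the same cells, stood at 6.59 ± 1.10 CPM in AET_MET, 5.48 ± 0.465 CPM in AET and 11.2 ± 0.358 CPM in SED (SD, n = 3 each), and fell by 1.03 ± 0.13 on the log2 scale in AET against SED (edgeR adjusted p = 0.000545). Both calls held with any 1 library left out. Col1a1, a fibroblast collagen, stood at 30.8 ± 2.57 CPM in AET_MET, 62.5 ± 6.79 CPM in AET and 108 ± 38.1 CPM in SED (SD, n = 3 each), and fell by 1.82 ± 0.25 on the log2 scale in AET_MET against SED (edgeR adjusted p = 0.0125, lost without AET_MET replicate 1 or 3, where it reached 0.0755, and with the 2 groups alone). In AET against SED, Dcn, a proteoglycan of fibroblasts, fell by 0.47 ± 0.14 (edgeR adjusted p = 0.0415) and Acta1, the actin of the muscle fibre, by 0.37 ± 0.10 (0.0295), both on the log2 scale. S100b, a marker of Schwann cells, rose by 1.73 ± 0.47 (edgeR adjusted p = 0.0375) and Acta2, the actin of smooth muscle, by 1.10 ± 0.27 (0.0416). These calls of Dcn, Acta1, S100b and Acta2 were lost in 8, 5, 5 and 6 of the 9 fits that left out 1 library. Each was the only gene of its list that edgeR called in AET against SED. The log2 change there was positive for 4 of 8 fibroblast, 4 of 8 muscle fibre and 2 of 4 smooth muscle and pericyte markers. It was positive for 6 of 8 endothelial and 4 of 4 Schwann cell markers. In AET_MET against SED 2 of 8 fibroblast markers were positive.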
